A study of Mus musculus with 18 samples.

Results

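The genes described here are 48 genes of glucose and lactate transport, glycolysis and the citric acid cycle. They were chosen by symbol from the 24419 gene symbols of the expression table, with earlier results of these data known. They comprise 2 glucose transporters, 2 lactate transporters, 9 genes of upper glycolysis, 4 enzymes that make and break fructose 2,6-bisphosphate, 7 genes of lower glycolysis, 2 lactate dehydrogenase subunits, 20 genes of the citric acid cycle and its dehydrogenase complexes, and 2 aspartate aminotransferases. Glycolysis splits glucose into pyruvate in the cytosol and yields a little ATP without oxygen, with lactate as its end product when pyruvate is not oxidized. The citric acid cycle in the mitochondria completes the oxidation and feeds electrons to the respiratory chain. The healthy adult heart draws most of its ATP from mitochondrial oxidation, mainly of fatty acids and to a lesser part of glucose and lactate, and blocking a coronary artery cuts the oxygen supply of the tissue behind it. Several steps of glycolysis are encoded by 2 or more genes, of which muscle uses a different one than proliferating, hypoxic or immune cells typically do.

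RNA-seq was performed on the hearts of 18 C57BL/6 mice aged 8 weeks, 3 in each of 6 groups. A control group, which the study treats as its sham group, was compared with mice taken 10 min, 1 h, 6 h, 24 h or 72 h after acute myocardial infarction (AMI) was induced by tying off the proximal left anterior descending coronary artery under pentobarbital. All mice were male by the study's methods. The tissue was left ventricle, infarcted in the AMI mice, so each library holds RNA of all cells of that piece of muscle. How the piece of the control mice was matched to the infarct region is not given in the sources used here. Expression was given as FPKM, fragment numbers scaled by transcript length and by the mapped fragments of a library, so that levels can be set side by side between genes, while a comparison between mice also rests on this scaling and was repeated with others.

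The FPKM of a mouse summed to between 542418 and 600467, and the depth of the libraries, which the table does not state, was estimated from the lowest values at 0.809 to 1.31 times that of the first control mouse. The 72 h mice, at 1.3, 1.31 and 1.24, were all above the control mice, at 1, 0.971 and 1.12. All 48 genes reached an FPKM of 1 in at least 1 mouse as did 13285 other genes, and between 13297 and 13330 of all these varied among the mice of a given comparison and were tested. Aldoc passed through mice at 24 h and 72 h alone, so its difference is in part built into the filter, and the other 47 genes had a mean FPKM of at least 1 over all mice. A gene is said to have risen or fallen where limma's adjusted p was under 0.05, and log2 fold changes are on the scale of log2(FPKM + 1). All comparisons with control share the same 3 control mice. Since each library is bulk tissue, a lower level can mean fewer cells of a type or less RNA per cell, and these cannot be told apart here.

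The cardiac muscle label was checked against 8 cardiomyocyte markers, the troponins Tnnt2 and Tnni3, the myosin genes Myh6 and Myl2, the actin Actc1 and the calcium handling genes Ryr2, Pln and Atp2a2. None was at 0 in any mouse, and their summed FPKM was 55765 to 59296 in control mice and 20429 to 25375 at 72 h, when all 8 had fallen. Markers of other cells moved over the same course. All 4 neutrophil markers rose at 6 h, where their summed FPKM was 111 to 956 against 2.14 to 4.83 in control mice, and Retnlg was at 0 in 2 control mice. All 4 macrophage and monocyte markers rose at 24 h and 72 h, with sums of 3349 to 4469 at 72 h against 184 to 210. All 4 fibroblast markers and all 4 proliferation markers rose at 72 h, with sums of 1951 to 2697 and 70.9 to 104 against 199 to 215 and 0.433 to 0.897, whereas 2 of 4 endothelial and 2 of 5 erythroid markers fell. The part of these cells in the differences below was not tested.

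No member rose or fell at 10 min or 1 h, the first changes appeared at 6 h in 11 genes of transport and glycolysis, and citric acid cycle genes fell from 24 h on. At 10 min 0 of 48 genes passed limma's threshold, with 7 at an unadjusted p under 0.05, beside 0.248% of all genes tested higher and 0.0978% lower. At 1 h 0 of 48 passed, with 2 at an unadjusted p under 0.05, beside 0.669% of all genes higher and 0.0526% lower. With shares of all genes this small, 0 of 48 at either time does not set the members apart. After 6 h 6 genes had risen and 5 had fallen, beside 11.6% and 16.8% of all genes. The part of the 48 that rose was thus near that of all genes, and the part that fell was below it. At 24 h 9 rose and 24 fell, beside 26.2% and 11.4% of all genes, and at 72 h 10 rose and 34 fell, beside 53.1% and 24.2%. Where a mean FPKM of at least 1 was required, which leaves out Aldoc, 8 rose and 25 fell at 24 h, and 9 rose and 34 fell at 72 h. The median log2 fold change of the 48 genes was -0.10, -0.38 and -1.19 after 6 h, 24 h and 72 h, where that of all genes was -0.08, 0.13 and 0.29.

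The study's own thresholds, an unadjusted p under 0.05 with a ratio of mean FPKM over 2, kept the larger changes only. They gave 0 members at 10 min (0.684% of all genes higher, 0.526% lower) and 0 at 1 h (1.12% and 0.429%). By them 4 members were higher and 1 lower after 6 h (6.76% and 3.52% of all genes), 7 and 2 after 24 h (11.7% and 2.81%), and 7 and 29 after 72 h (26.5% and 8.44%).

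**Figure D1:**
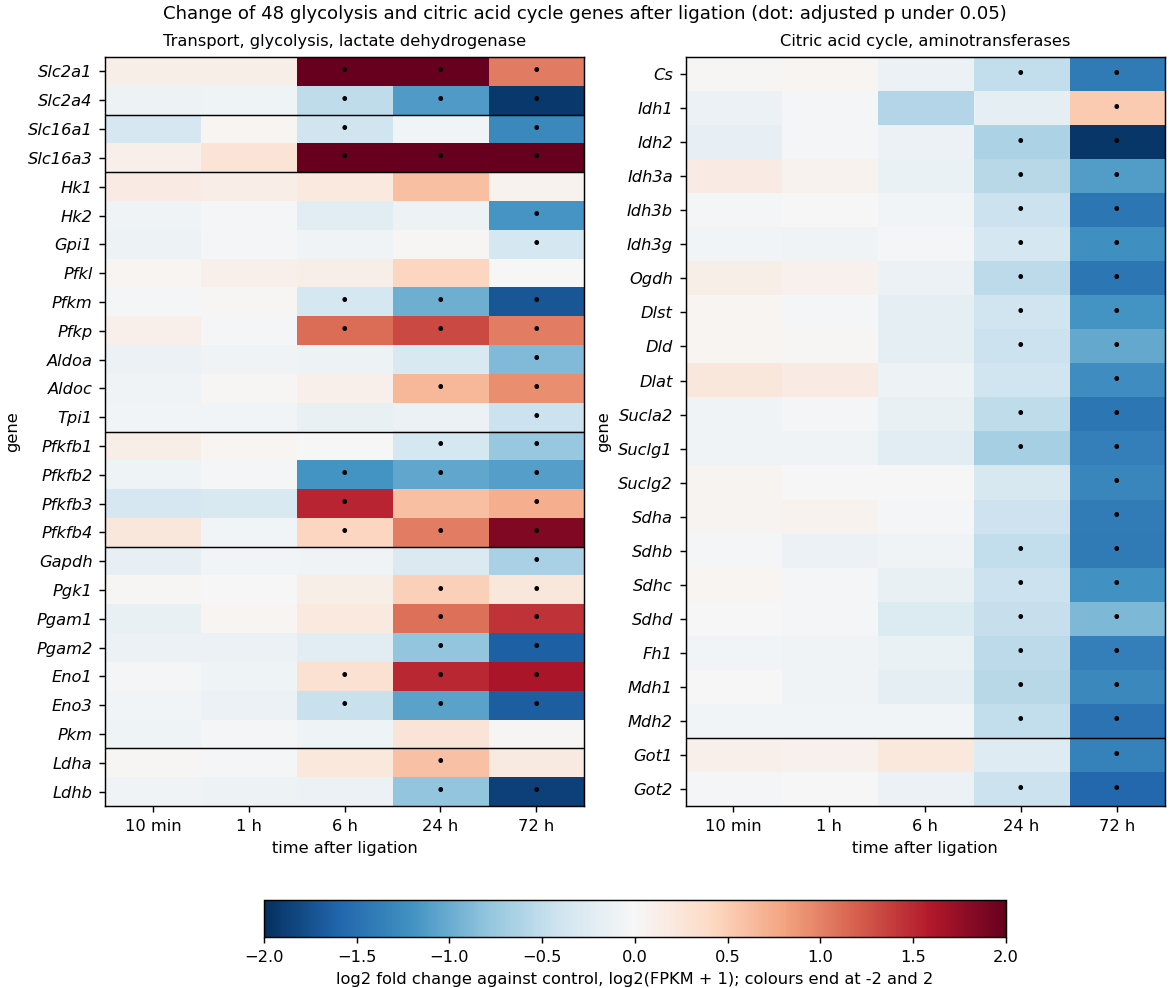
Log2 fold change of each of the 48 genes against control at the 5 times after ligation, on the log2(FPKM + 1) scale, with blue for lower, red for higher and colours that end at -2 and 2. Dots mark an adjusted p under 0.05, and at 72 h 21 of the 22 genes in the right panel are lower with Idh1 the exception, while 9 genes in the left panel are higher and 13 lower.

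Differences at 10 min and 1 h were small. The gene Slc16a1 of the transporter MCT1, which carries lactate and pyruvate across the membrane of muscle and other cells, was at 131.5, 136.2 and 125.7 FPKM in the 10 min mice and 160.5, 164.9 and 173.6 FPKM in the control mice. The groups did not overlap, and the log2 fold change of -0.34 ± 0.05 (SE, n = 3 against 3) had an adjusted p of 0.0588 in limma. At 1 h the mice were at 180, 178.8 and 155.4 FPKM, so the dip was not seen there. Dlat, the acetyltransferase subunit of the pyruvate dehydrogenase complex, had a log2 fold change of 0.23 ± 0.05 at 10 min and 0.17 ± 0.06 at 1 h, with adjusted p of 0.133 and 0.332.

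Glucose and lactate transporters changed in opposite directions within each pair. Slc2a1 encodes GLUT1, the transporter of basal glucose uptake found in most cell types. It was at 5.97, 6.42 and 6.06 FPKM in control mice, at 53.0, 26.4 and 31.8 FPKM at 6 h, at 27.7, 18.5 and 80.8 FPKM at 24 h and at 13.2, 16.6 and 11.7 FPKM at 72 h. Every mouse from 6 h on lay above every control, 10 min and 1 h mouse, and the level was lower at 72 h than in any 6 h or 24 h mouse. The log2 fold change was 2.35 ± 0.23 at 6 h (adjusted p = 0.00103), 2.32 ± 0.47 at 24 h (0.0125) and 1.04 ± 0.12 at 72 h (4.54e-05).

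Slc2a4 encodes GLUT4, the insulin-responsive transporter of muscle and fat. It fell from 160.3, 149.9 and 149.6 FPKM in control mice to 89.4, 122.7 and 113.7 FPKM at 6 h, to 84.6, 86.5 and 46.0 FPKM at 24 h and to 47.3, 33.1 and 39.5 FPKM at 72 h. No mouse from 6 h on reached the lowest control mouse. Its log2 fold change was -0.51 ± 0.12 at 6 h (adjusted p = 0.0205), -1.13 ± 0.23 at 24 h (0.0131) and -1.93 ± 0.12 at 72 h (1.17e-06).

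Slc16a3 encodes MCT4, a lactate exporter of cells with high glycolytic flux, and was the largest rise among the 48 genes at 6 h, 24 h and 72 h. Control mice had 1.26, 1.10 and 1.80 FPKM, the 6 h mice 46.1, 17.0 and 23.4 FPKM, the 24 h mice 32.4, 19 and 119.9 FPKM and the 72 h mice 28, 33.5 and 25.8 FPKM. The groups from 6 h on were far above the control mice, and mouse 3 at 24 h and mouse 1 at 6 h stood above the others of their groups. The ratio of mean FPKM to control was 20.8, 41.2 and 21.0 after 6 h, 24 h and 72 h, and 18.6 at 24 h without mouse 3, and the rise on the log2 scale was 3.54 ± 0.33 (adjusted p = 0.000846), 4.19 ± 0.60 (0.00528) and 3.66 ± 0.13 (6.73e-08). Slc16a1 fell at 6 h by 0.40 ± 0.08 on the log2 scale (0.0136), was at -0.05 at 24 h, and fell at 72 h by 1.28 ± 0.06 (3.42e-07), when the mice were at 69.8, 67.8 and 65.8 FPKM. The 6 h mice were at 123.4, 117.0 and 138.6 FPKM.

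The same mice that stood out for Slc2a1 and Slc16a3 stood out for neutrophil markers and for markers of other cells. S100a9, a calcium-binding protein abundant in neutrophils, was at 768.1, 86.5 and 291.6 FPKM in the 6 h mice and at 156.1, 28.9 and 721.3 FPKM in the 24 h mice, which is the order of the mice by Slc16a3 in both groups. Csf3r, another of the 4 neutrophil markers, was at 9.88, 3.27 and 3.11 FPKM in the 6 h mice, with mice 2 and 3 in the other order. At 72 h S100a9 was at 32.9, 38.5 and 38 FPKM, Csf3r at 6.69, 7.07 and 9.27 FPKM and Slc16a3 at 25.8 to 33.5 FPKM. Of the 4 neutrophil markers 3 were still higher than in control mice at 72 h. Among the 24 h mice, mouse 3 had the lowest level of every cardiomyocyte marker, with Myh6 at 1552.7 FPKM against 2618 and 2606.4. It also had the highest level of every macrophage and monocyte marker, with Csf1r at 100.7 FPKM against 59.6 and 70.7, while endothelial markers were mixed. Among the 6 h mice, mouse 1 was highest for every macrophage and endothelial marker, with Pecam1 at 309.7 FPKM against 233.3 and 235.9. The part of neutrophils or of these other cells in the rise of either transporter was not tested.

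The 250 bases before and 50 bases after the start of Slc2a1, Slc16a3 and Pgam1, taken from RefSeq on GRCm38.p6, are shown because these genes rose and their windows hold the letters ACGTG, the core of the element bound by hypoxia-inducible factors. Sequences run 5′ to 3′ on the strand of the gene, and capitals mark ACGTG.
Slc2a1 promoter, chr4:119108495-119108794, plus strand: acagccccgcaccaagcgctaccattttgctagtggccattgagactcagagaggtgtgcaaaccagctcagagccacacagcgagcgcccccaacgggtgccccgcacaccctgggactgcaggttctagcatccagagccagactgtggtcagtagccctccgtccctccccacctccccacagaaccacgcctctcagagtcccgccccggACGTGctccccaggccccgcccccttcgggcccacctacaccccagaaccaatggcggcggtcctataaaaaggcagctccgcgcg
Slc16a3 promoter, chr11:120948817-120949116, plus strand: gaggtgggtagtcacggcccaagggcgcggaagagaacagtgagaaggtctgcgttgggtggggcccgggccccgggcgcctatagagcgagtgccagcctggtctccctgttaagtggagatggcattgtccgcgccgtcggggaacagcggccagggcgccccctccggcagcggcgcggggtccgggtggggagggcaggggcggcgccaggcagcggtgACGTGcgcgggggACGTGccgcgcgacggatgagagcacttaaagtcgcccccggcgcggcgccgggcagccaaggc
Pgam1 promoter, chr19:41911621-41911920, plus strand: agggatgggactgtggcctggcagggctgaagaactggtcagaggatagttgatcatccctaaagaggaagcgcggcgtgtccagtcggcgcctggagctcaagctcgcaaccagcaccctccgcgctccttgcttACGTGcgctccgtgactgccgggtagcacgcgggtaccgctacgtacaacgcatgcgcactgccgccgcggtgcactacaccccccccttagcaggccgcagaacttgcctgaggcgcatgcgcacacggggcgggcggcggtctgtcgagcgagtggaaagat

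The match began 36 bases before the start of Slc2a1, 27 and 14 bases before that of Slc16a3 and 114 bases before that of Pgam1, a phosphoglycerate mutase described with lower glycolysis. ACGTG was searched on both strands and is also part of the E-box CACGTG. Of the 48 genes 45 had a promoter in the table, and 19 of these 45 (42.2%) held ACGTG in at least 1 window, against 21.8% of all genes with a promoter. Among the genes grouped by their test at 72 h, ACGTG was found in 6 of 10 that rose, in 10 of 31 that fell and in 3 of 4 that did neither. Pfkfb3, Aldoc and Pgk1 were the other risers with it, and Pfkp, Pfkfb4, Eno1 and Idh1 had none in their windows. Genes that fell held it too, among them Slc16a1, Pfkm, Pfkfb2, Aldoa and Gapdh. The element TNAAGGTCA of the oestrogen-related receptors, factors known for driving mitochondrial genes, was present for 2 of 45 genes, Tpi1 and Sdhd, beside 1.43% of all genes. A match is a match of letters and says nothing of whether a factor was bound.

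Upper glycolysis takes glucose to triose phosphate, and here the muscle phosphofructokinase fell while the platelet form rose. Pfkm, the muscle subunit of the enzyme that commits glucose to glycolysis, was at 1662.6, 1600.2 and 1592.4 FPKM in control mice, at 1134.8, 1271.6 and 1392.4 FPKM at 6 h, at 1095.2, 831.0 and 617.4 FPKM at 24 h and at 604.9, 416.5 and 479.2 FPKM at 72 h. All mice from 6 h on were below all control mice. The log2 fold change was -0.36 ± 0.09 at 6 h (adjusted p = 0.0235), -0.97 ± 0.20 at 24 h (0.0127) and -1.71 ± 0.13 at 72 h (4.92e-06).

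Pfkp, the platelet-type subunit of the same enzyme, had 41.8, 26.8 and 31.0 FPKM in control mice, 82.2, 67.4 and 66.9 FPKM at 6 h, 69.5, 67.0 and 122.9 FPKM at 24 h and 66.1, 64.8 and 70.9 FPKM at 72 h. The groups did not overlap with control from 6 h on. It rose by 1.12 ± 0.17 at 6 h (adjusted p = 0.00403), 1.32 ± 0.26 at 24 h (0.0117) and 1.02 ± 0.14 at 72 h (0.000178) on the log2 scale. Even so, Pfkm at 500.2 ± 96.0 FPKM (SD, n = 3) stayed above Pfkp at 67.3 ± 3.19 FPKM at 72 h. The liver-type Pfkl passed at no time, with 42.3 ± 3.90 FPKM in control mice and 42.5 ± 2.89 FPKM at 72 h, though under median-of-ratios scaling it passed as a fall at 72 h.

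Of the other upper glycolysis genes, none passed at 6 h and 1, Aldoc, passed at 24 h. At 72 h the hexokinase Hk2, which traps glucose in insulin-responsive tissue, fell to 0.438 of the mean control FPKM (adjusted p = 2.31e-06), from 127.5, 119.1 and 117.4 FPKM in control mice to 54.2, 57.4 and 47.9 FPKM without overlap. Aldolase Aldoa fell by 0.89 ± 0.10 (6.08e-05), the isomerase Tpi1 by 0.43 ± 0.08 (0.000785) and the isomerase Gpi1 by 0.35 ± 0.09 (0.00551). Hk1, the hexokinase of most tissues, did not pass at any time and was more variable, with 341.8 to 642.5 FPKM among the 24 h mice. Aldoc, the brain-type aldolase, was at 0.0449 to 0.209 FPKM in control mice and 0.918 to 1.19 FPKM at 72 h, a rise of 0.92 ± 0.10 (4.47e-05) at a level far below the 1120.2 ± 99.3 FPKM of Aldoa. As Aldoc passed the filter through mice at 24 h and 72 h alone, its difference at these times is in part built into the filter.

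The 4 enzymes that set fructose 2,6-bisphosphate, the strongest activator of phosphofructokinase, did not move together. Pfkfb3, an inducible form whose kinase activity far exceeds its phosphatase activity, was highest at 6 h, with 6.34, 6.79 and 6.89 FPKM in control mice, 37.3, 14.0 and 17.8 FPKM at 6 h, 7.70, 5.79 and 25.4 FPKM at 24 h and 10.8, 12.0 and 12.4 FPKM at 72 h. The 24 h mice straddled the control mice, whereas the 6 h and 72 h mice were all above them. The log2 fold change was 1.53 ± 0.31 at 6 h (adjusted p = 0.0125) and 0.73 ± 0.08 at 72 h (3.43e-05).

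Pfkfb4, another inducible form, had a higher group mean at 6 h, 24 h and 72 h in turn, with 1.38, 1.28 and 1.24 FPKM in control mice, 2.65, 1.87 and 1.80 FPKM at 6 h, 2.47, 3.15 and 6.08 FPKM at 24 h and 7.18, 6.74 and 7.97 FPKM at 72 h. Every mouse from 6 h on was above every control mouse. Its rise was 0.42 ± 0.12 at 6 h (adjusted p = 0.0394), 1.02 ± 0.25 at 24 h (0.0207) and 1.85 ± 0.09 at 72 h (2.52e-07) on the log2 scale. It did not pass at 10 min and 1 h, where the group means were 1.70 ± 0.0799 and 1.21 ± 0.0421 FPKM (SD, n = 3).

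Pfkfb2, the heart form, went the other way from 6 h on. Its levels were 31.7, 30.1 and 30.2 FPKM in control mice, 11.2, 11.8 and 16.3 FPKM at 6 h, 20.5, 17.8 and 8.09 FPKM at 24 h and 15, 11.3 and 15.2 FPKM at 72 h. At 6 h it had the largest fall of the 48 genes, with a log2 fold change of -1.19 ± 0.14 (adjusted p = 0.0018), and the groups did not overlap at any of these times. At 24 h and 72 h it was -1.04 ± 0.30 (0.0341) and -1.11 ± 0.11 (2.01e-05). Pfkfb1, known from liver and skeletal muscle, fell from 1.79 ± 0.204 FPKM in control mice to 1.19 ± 0.126 FPKM at 24 h (0.0404) and 0.654 ± 0.205 FPKM at 72 h (0.000305).

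**Figure D2:**
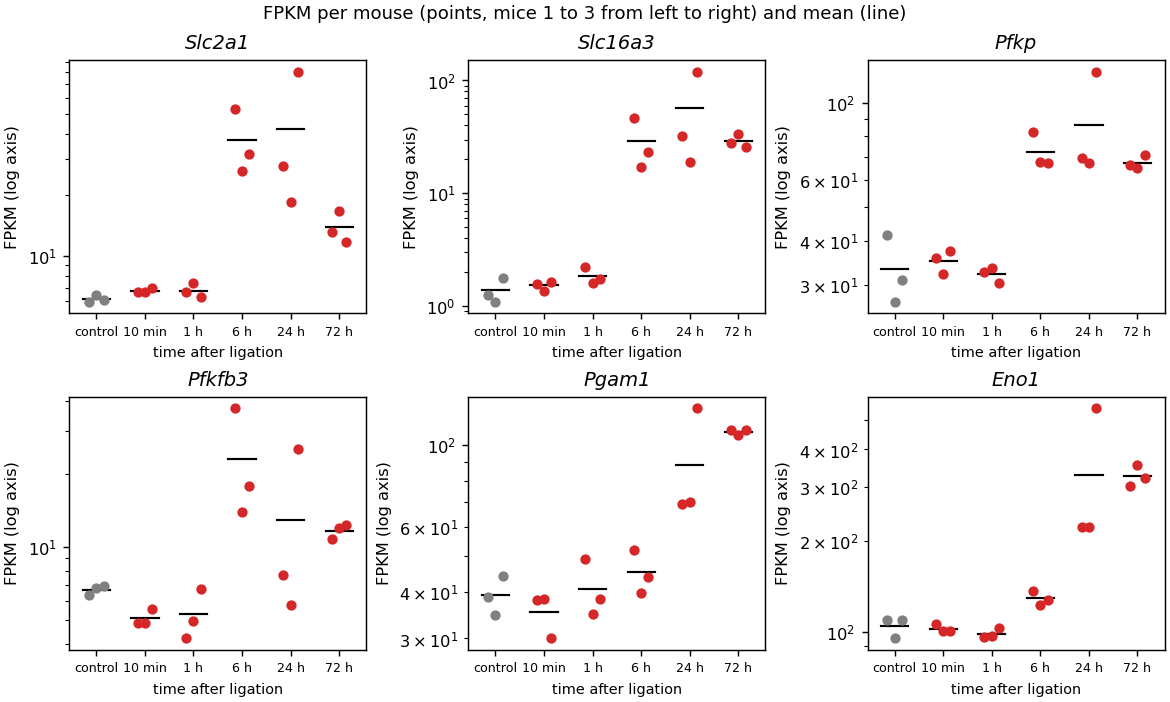
FPKM of 6 genes that rose after ligation in each of the 18 mice, on a log axis whose range differs between panels, with 1 point per mouse, lines at group means, grey points for control and red for AMI. Slc2a1, Slc16a3, Pfkp and Pfkfb3 are raised at 6 h, Pgam1 and Eno1 mainly from 24 h, and mouse 3 at 24 h has the highest 24 h value in all 6 panels.

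Lower glycolysis, from triose phosphate to pyruvate, showed the same exchange between muscle and widely expressed isoforms. Eno1, the enolase of most cell types, was at 109.4, 95.3 and 109.6 FPKM in control mice, 136.5, 122.8 and 127.7 FPKM at 6 h, 222.5, 221.8 and 547.5 FPKM at 24 h and 303.1, 355.3 and 322.9 FPKM at 72 h. The groups from 6 h on were separate from control, and at 24 h mouse 3 was above every other mouse of the study. Its log2 fold change was 0.30 ± 0.08 at 6 h (adjusted p = 0.0344), 1.51 ± 0.34 at 24 h (0.016) and 1.63 ± 0.09 at 72 h (5.68e-07). Reads of Eno1 may be shared with Eno1b, a near-identical copy listed at 0.0175 to 1.94 FPKM, so a part of its level is uncertain.

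Eno3, the muscle enolase, was at 1000.4, 931.3 and 955.1 FPKM in control mice, 651.9, 726.8 and 741.2 FPKM at 6 h, 517.3, 521.4 and 358.1 FPKM at 24 h and 382.7, 258.8 and 285.8 FPKM at 72 h. It fell by 0.45 ± 0.08 at 6 h (adjusted p = 0.00668), 1.07 ± 0.16 at 24 h (0.00566) and 1.66 ± 0.14 at 72 h (7.43e-06) on the log2 scale, without overlap with control. At 72 h Eno1 at 327.1 ± 26.4 FPKM (SD, n = 3) and Eno3 at 309.1 ± 65.1 FPKM did not differ beyond their spread.

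The phosphoglycerate mutases parted in the same manner as the enolases. Pgam1, the form of most tissues, had 38.9, 34.8 and 44.3 FPKM in control mice, 51.9, 39.8 and 44.0 FPKM at 6 h, 69.1, 70.2 and 125.5 FPKM at 24 h and 109.7, 106.1 and 109.4 FPKM at 72 h. It overlapped control at 6 h and not afterwards, with rises of 1.10 ± 0.23 at 24 h (adjusted p = 0.0143) and 1.45 ± 0.09 at 72 h (1.18e-06). Pgam2, the muscle form, was at 72.0, 66.0 and 69.0 FPKM in control mice, 53.8, 63.5 and 58.7 FPKM at 6 h, 45.2, 44.8 and 30.3 FPKM at 24 h and 28.6, 16.9 and 20.6 FPKM at 72 h. All its mice from 6 h on were below all control mice, and the log2 fold changes were -0.23 ± 0.08 (0.0736), which did not pass, -0.79 ± 0.16 (0.012) and -1.63 ± 0.16 (1.92e-05).

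Among the steps with 1 gene in the list of 48, Gapdh, a common loading control, fell at 72 h by 0.64 ± 0.10 on the log2 scale (adjusted p = 0.000407), from 2357.7 ± 77.1 to 1511.2 ± 130.3 FPKM. Pgk1 rose by 0.47 ± 0.13 at 24 h (0.0324) and 0.22 ± 0.08 at 72 h (0.0292), and the value at 72 h turned to -0.09 under median-of-ratios scaling. Pkm, pyruvate kinase, passed at no time, with 527 ± 13.8 FPKM in control mice and 536 ± 33.7 FPKM at 72 h, though under median-of-ratios scaling it passed as a fall at 72 h. Many processed copies of Gapdh and other glycolysis genes lie in the mouse genome, and how reads shared with them were counted is not given in the sources used here.

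Lactate dehydrogenase subunits parted as well. Ldhb, the subunit linked to oxidative heart muscle, was at 403.1, 375.2 and 365.7 FPKM in control mice, 265.6, 214.4 and 184.5 FPKM at 24 h and 131.6, 86.9 and 98.0 FPKM at 72 h, all below control. Its log2 fold change was -0.80 ± 0.14 at 24 h (adjusted p = 0.00812) and -1.87 ± 0.14 at 72 h (3.85e-06). Ldha, the subunit of anaerobic muscle, was already the larger of the pair in control mice, at 1120.7, 1067.3 and 1127.5 FPKM. It was at 1510.2, 1629.3 and 1839.3 FPKM at 24 h, where it rose by 0.58 ± 0.11 (0.00953). At 72 h it was at 1301.2, 1296.2 and 1161.5 FPKM, still above every control mouse, and the change of 0.18 did not pass.

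Several calls at 6 h and 24 h were lost or gained when 1 mouse was left out. At 6 h leaving out control mouse 1, 2 or 3 left 4, 4 and 4 genes higher and 3, 2 and 2 lower, and without 6 h mouse 3 the counts were 6 and 13, 8 of the 13 being genes of the citric acid cycle and aminotransferase lists. Slc2a1, Slc16a3, Pfkp, Pfkfb2, Pfkfb3 and Eno3 passed in all 6 fits that left out a mouse, whereas Slc2a4, Slc16a1, Pfkm, Pfkfb4 and Eno1 passed in 3, 4, 3, 2 and 2 of them. At 24 h leaving out control mouse 1, 2 or 3 left 2, 2 and 6 genes higher and 3, 4 and 6 lower, and leaving out 24 h mouse 2 left 11 and 13. Slc16a3, Eno3, Ldhb and Suclg1 passed in all 6 fits, and without 24 h mouse 3, the mouse with the highest Slc2a1, Slc16a3 and Eno1, 9 genes rose and 22 fell. At 72 h every member that had risen or fallen passed in all 6 fits except Pgk1, which passed in 2 of them and was lost without control mouse 1 at an adjusted p of 0.0936.

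The share of 1 gene in the summed FPKM of a pair of related enzymes was then taken mouse by mouse, since a share within a mouse does not change when all values of that mouse are rescaled. For most pairs the gene counted was the form linked to muscle or heart. For Idh2, Got2 and Mdh2 it was the mitochondrial enzyme beside the cytosolic one, and for Sucla2 the ATP-forming subunit beside the GTP-forming one. Hk2 and Ldhb were nonetheless the smaller part of their pairs in control mice, at means of 27.2% and 25.7%. Of 14 pairs, 4 did not overlap with control after 10 min and 1 after 1 h, against 10 after 6 h, 13 after 24 h and 13 after 72 h. For single genes, FPKM did not overlap with control in 20.4%, 18.3%, 48.8%, 58.3% and 80.6% of all genes tested at the 5 times. The exact two-sided permutation test of 3 mice against 3 cannot give less than p = 0.1, which is 0.171 after adjustment over all pairs and times, so no share passes a threshold and the separation of the groups is a description.

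**Figure D3:**
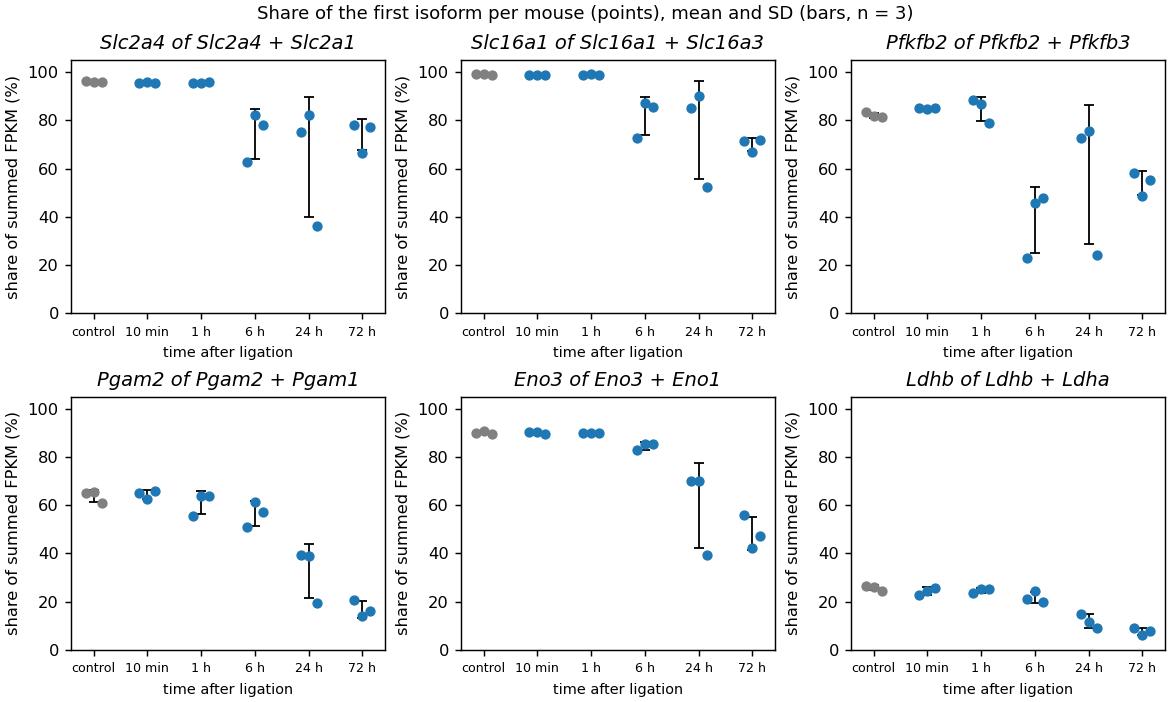
Share in percent of the gene named first in the summed FPKM of 6 isoform pairs, with 1 point per mouse, grey for control and blue for AMI, and bars from the mean minus to the mean plus 1 SD (n = 3). At 72 h all mice lie below all control mice in each panel, and mouse 3 at 24 h lies well below its group in 5 of them.

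The mutase pair shifted most. Pgam2 made up 64.9%, 65.5% and 60.9% of the pair in control mice, 39.5%, 39.0% and 19.5% at 24 h and 20.7%, 13.8% and 15.9% at 72 h, so the muscle form went from the larger to the smaller share. The mean difference from control at 72 h was -47.0 percentage points. Eno3 held 90.1%, 90.7% and 89.7% of the enolase pair in control mice and 55.8%, 42.1% and 47.0% at 72 h, a mean difference of -41.9 points.

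For the fructose 2,6-bisphosphate enzymes the largest shift came at 6 h. Pfkfb2 held 83.3%, 81.6% and 81.4% of its sum with Pfkfb3 in control mice, 23.0%, 45.7% and 47.7% in the 6 h mice, 72.7%, 75.5% and 24.2% in the 24 h mice and 58.1%, 48.5% and 55.2% in the 72 h mice. All mice from 6 h on were below the control mice, while the 24 h group ran from near control to the level of the lowest 6 h mouse. The exact permutation p was 0.1 at each of the 3 times.

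Transport shares changed by 6 h and remained lower. Slc2a4 held 96.4%, 95.9% and 96.1% of the glucose transporter pair in control mice, 62.8%, 82.3% and 78.1% in the 6 h mice, 75.3%, 82.4% and 36.3% in the 24 h mice and 78.2%, 66.6% and 77.1% in the 72 h mice. Slc16a1 held 99.2%, 99.3% and 99.0% of the lactate transporter pair in control mice, 72.8%, 87.3% and 85.5% in the 6 h mice, 85.0%, 89.9% and 52.5% in the 24 h mice and 71.4%, 66.9% and 71.8% in the 72 h mice. GLUT4 and MCT1 transcripts therefore remained the larger part of their pairs in all but 1 of the 18 mice for glucose, 24 h mouse 3, and in all 18 for lactate.

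Ldhb went from 26.5%, 26.0% and 24.5% of the dehydrogenase pair to 9.19%, 6.28% and 7.78% at 72 h, and Hk2 from 31.8%, 25.1% and 24.6% of the hexokinase pair to 13.5%, 13.9% and 12.8%. Pfkm went from 97.5%, 98.4% and 98.1% beside Pfkp to 90.2%, 86.5% and 87.1% at 72 h, and beside Pfkl from 97.5%, 97.7% and 97.2% to 93%, 91.1% and 92.1%. The muscle subunit thus remained the main one in every mouse. Aldoa stayed at a mean of 99.9% or more in every group. In the cycle, the mitochondrial Idh2 went from 96.8%, 96.8% and 96.5% of its sum with the cytosolic Idh1 to 86.4%, 82.6% and 83.1% at 72 h. Pairs in which both genes fell shifted little. Got2 beside Got1 was at 40.4%, 41.1% and 41.2% in control mice and 37.3%, 37.1% and 37.5% at 72 h. Mdh2 beside Mdh1 was at 22.3%, 21% and 21%, and at 72 h 20.7%, 17.5% and 20%, again below control in each mouse. Sucla2 beside Suclg2 was at 88%, 88.5% and 88.7%, and at 72 h 88.3%, 89% and 86%, with overlap of the groups.

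Of the 22 citric acid cycle and aminotransferase genes none passed at 6 h, most fell at 24 h in a count that shrank when any 1 control mouse was left out, and all but Idh1 fell at 72 h. At 6 h 0 of 22 passed in limma, with 4 at an unadjusted p under 0.05, and log2 fold changes from -0.58 to 0.21. At 24 h 17 of 22 fell and 0 rose, and at 72 h 21 fell and 1 rose. The background over all genes was 11.4% lower at 24 h and 24.2% lower at 72 h. At 24 h Suclg1 alone of the 22 fell when control mouse 1, 2 or 3 was left out, beside 2.75%, 2.99% and 3.51% of all genes, while 22, 7 and 15 fell without 24 h mouse 1, 2 or 3. A fit without a control mouse has 1 mouse fewer, and its share of all genes that fell was also below the 11.4% of the full fit. Summed over the 20 cycle genes, control mice were at 98.3% to 102% of their mean and 24 h mice at 60.6% to 84.1%. The study's thresholds gave 0 falls among the 22 at 24 h and 20 at 72 h, and 0 of 22 passed between 6 h and 24 h. At 72 h 21 fell and 1 rose in all 6 fits that left out a mouse.

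Citrate synthase, Cs, which opens the cycle and is used as a measure of mitochondrial content, was at 620.1, 596.7 and 608.3 FPKM in control mice, 531.1, 540.9 and 616.3 FPKM at 6 h, 508.2, 429.8 and 369.8 FPKM at 24 h and 263.7, 207.8 and 216.0 FPKM at 72 h. The 6 h mice overlapped control, and the 24 h and 72 h groups did not overlap control or each other. It fell by 0.49 ± 0.13 at 24 h (adjusted p = 0.0236) and by 1.41 ± 0.10 at 72 h (2.56e-06) on the log2 scale.

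Idh2, the NADP-dependent mitochondrial isocitrate dehydrogenase, had with Slc2a4 the largest fall of the 48 genes at 72 h, to 26.2% and 26.1% of the control mean. Its levels were 1152.9, 1135.6 and 1033.3 FPKM in control mice, 887.4, 681.5 and 599.6 FPKM at 24 h and 350.7, 247.6 and 271.0 FPKM at 72 h. The log2 fold change was -0.63 ± 0.15 at 24 h (adjusted p = 0.0204) and -1.94 ± 0.13 at 72 h (1.99e-06), and no mouse of either group reached the control range. The subunits of the NAD-dependent enzyme, Idh3a, Idh3b and Idh3g, fell to 46.3%, 36.8% and 42.8% of control at 72 h.

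Idh1, the cytosolic isocitrate dehydrogenase that supplies NADPH outside the mitochondria, rose at 72 h. It was the only one of the 20 genes listed with the cycle to do so. It was at 38, 37.7 and 36.9 FPKM in control mice, 17.8, 22.5 and 37.8 FPKM at 6 h, 37.7, 32.7 and 29.7 FPKM at 24 h and 55.1, 52.0 and 55.1 FPKM at 72 h. The 72 h mice were above all 15 other mice, with a rise of 0.52 ± 0.06 on the log2 scale (adjusted p = 5.24e-05).

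The other genes of the cycle formed a narrow band. For the 19 cycle genes other than Idh1, mean FPKM was 82.7% (Sdhd) to 101% (Suclg2) of the control mean at 6 h, 63.5% (Suclg1) to 79.5% (Suclg2) at 24 h and 26.2% (Idh2) to 53.4% (Sdhd) at 72 h, with medians of 92.3%, 71.7% and 38.9%. All 4 succinate dehydrogenase subunits, which serve the cycle and the respiratory chain at once, fell at 72 h, Sdha by 1.41 ± 0.10, Sdhb by 1.41 ± 0.12, Sdhc by 1.22 ± 0.10 and Sdhd by 0.89 ± 0.08 on the log2 scale. The subunits of the 2-oxoglutarate dehydrogenase complex, Ogdh, Dlst and Dld, and the succinyl-CoA ligase subunits Sucla2, Suclg1 and Suclg2 fell at 72 h too, as did fumarase Fh1 and the malate dehydrogenases Mdh1 and Mdh2. The aspartate aminotransferases, which with the malate dehydrogenases shuttle reducing equivalents into mitochondria, fell by 1.35 ± 0.13 (Got1) and 1.56 ± 0.12 (Got2). The 4 cycle genes that did not pass at 24 h were Idh1, Dlat, Suclg2 and Sdha, with Got1 the other of the 22.

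Cardiomyocyte markers followed a similar course. The 8 markers had a median of 84.0% of the control mean at 6 h, 62.0% at 24 h and 32.2% at 72 h, with a range of 24.5% to 54.6% at 72 h. Summed over the list in each mouse, cycle genes were at 35.9% to 44.4% of control at 72 h and the markers at 35.4% to 44.0%. The marker sum is weighted to Tnnt2, the highest of the 8 in control mice, which was at 46.7% of control at 72 h. Gene by gene, the median at 72 h was 32.2% for the markers and 38.9% for the 19 cycle genes other than Idh1. Glycolysis enzymes summed with lactate dehydrogenase were at 65.4% to 72.7%, above both ranges. Whether the fall of the cycle genes goes beyond that of the muscle cells was not tested.

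**Figure D4:**
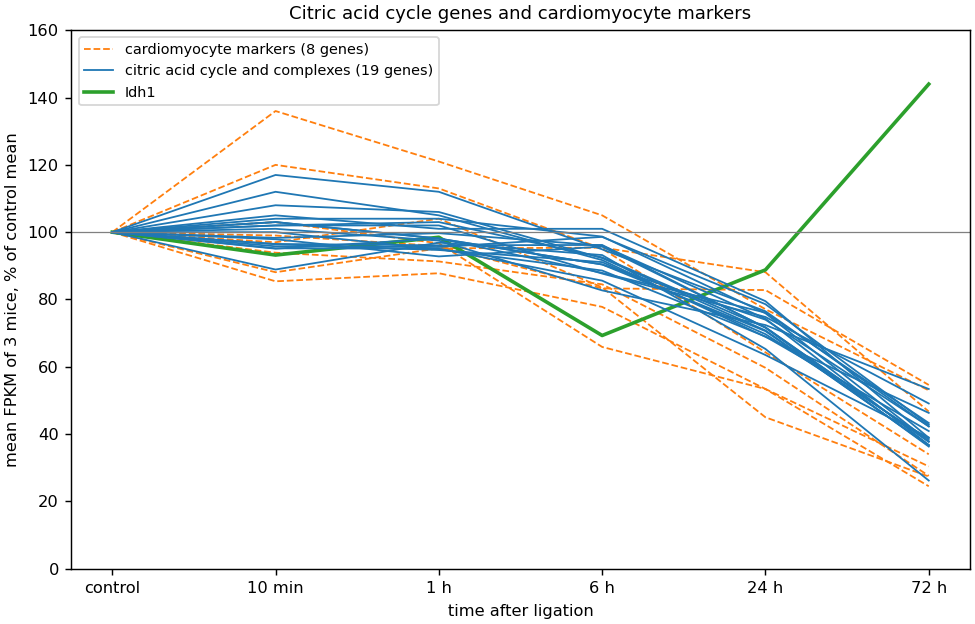
Mean FPKM of 3 mice per group in percent of the control mean for 19 citric acid cycle genes (blue), Idh1 (green) and 8 cardiomyocyte markers (orange, dashed), by time after ligation on an axis that is not to scale. At 72 h the blue lines end between 26.2% and 53.4%, within the range of the markers, and Idh1 ends at 144%.

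Neighbouring times were compared without the control mice. From 1 h to 6 h 6 genes rose and 5 fell, beside 9.32% and 11.2% of all genes. The 6 were Slc2a1 (2.23 ± 0.23 on the log2 scale), Slc16a3 (3.27 ± 0.32), Pfkp (1.14 ± 0.10), Pfkfb3 (1.83 ± 0.33), Pfkfb4 (0.48 ± 0.12) and Eno1 (0.38 ± 0.07), and the 5 were Slc2a4, Slc16a1, Pfkm, Pfkfb2 and Eno3. Under median-of-ratios scaling 7 rose and 2 fell, and by the study's thresholds 4 and 1 (5.89% and 2.75% of all genes). Leaving out 1 h mouse 1, 2 or 3 or 6 h mouse 1 left 1, 1, 2 and 2 genes lower, leaving out 1 h mouse 2 left 3 higher, and leaving out 6 h mouse 3 gave 11 lower.

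From 6 h to 24 h 3 genes rose and 1 fell, beside 12.5% and 1.94% of all genes, namely Eno1 (1.21 ± 0.33), Pgam1 (0.90 ± 0.24), Aldoc (0.56 ± 0.14) and Ldhb (-0.68 ± 0.16), with adjusted p of 0.0498, 0.0463, 0.0406 and 0.0366. These lie close to the threshold, and the study's thresholds gave 2 rises and 0 falls (6.97% and 1.51% of all genes). Requiring a mean FPKM of at least 1, which leaves out Aldoc, gave 2 rises and 2 falls. None of the 3 rises held under median-of-ratios scaling, which gave 0 rises and 4 falls, and leaving out any 1 of the 6 h mice, or 24 h mouse 2, left 0 rises and 0 falls. Leaving out 24 h mouse 1 gave 2 rises and 14 falls, and leaving out 24 h mouse 3 gave 2 rises and 0 falls.

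From 24 h to 72 h 2 genes rose and 32 fell, beside 29.7% and 13.5% of all genes. The 2 were Pfkfb4 (0.83 ± 0.25, adjusted p = 0.0316) and Idh1 (0.69 ± 0.11, 0.00265). All 21 other genes of the cycle and aminotransferase lists fell, led by Idh2 (-1.31 ± 0.19, 0.0016), Got2 (-1.14 ± 0.16, 0.0015) and Got1 (-1.09 ± 0.18, 0.00311). The 11 falls elsewhere included Slc16a1 (-1.23 ± 0.14, 0.000477), Hk2 (-1.08 ± 0.10, 0.00025), Ldhb (-1.07 ± 0.19, 0.00403) and Ldha (-0.40 ± 0.13, 0.0385). Slc2a1, Slc16a3, Pfkp, Pgam1 and Eno1 did not pass between these times. The study's thresholds gave 0 rises and 10 falls (15.5% and 3.26% of all genes). Only 1 gene rose when 24 h mouse 1 or 2 or any of the 72 h mice was left out, and 6 rose without 24 h mouse 3.

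The scale of the values matters most for the small changes. The median of all genes at 72 h was 0.29 on the log2 scale as deposited, 0.36 after scaling to the same sum, 0.04 after median-of-ratios scaling and -0.12 after quantile normalization. Counts over all genes at 72 h moved from 7081 higher and 3226 lower to 5243 and 4752 under median-of-ratios scaling and to 4278 and 5794 under quantile normalization. The members' counts at 72 h were 9 higher and 36 lower under the former and 10 and 33 under the latter. At 6 h they were 9 higher and 4 lower under median-of-ratios scaling. Against control, Pgk1 at 72 h was the only one of the 48 genes that had risen or fallen whose direction turned under any of these scalings.

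Related pathways that share intermediates with glycolysis were followed in 45 further genes, of which 42 were tested. At 6 h 4 rose and 4 fell, beside 11.6% and 16.8% of all genes, and at 24 h 11 rose and 12 fell, beside 26.2% and 11.4%. At 72 h 13 rose and 27 fell, beside 53.1% and 24.2% of all genes, so fewer of these genes rose and more fell than of all genes. At 72 h 6 of 7 genes of the pentose phosphate pathway, which makes NADPH and ribose, rose and 0 fell, with a median log2 fold change of 1.14 and 53.1% of all genes higher. The weakest of the 6, Pgls, at 0.30 ± 0.09, did not pass under median-of-ratios scaling or quantile normalization, by which Rpia was lower. Of 11 glycogen genes 10 fell and 1 rose, with a median of -0.57. Of 6 remaining cycle genes 4 fell and 2 rose, of 13 tested glycolytic isoforms and pyruvate entry genes 10 fell and 3 rose, and of 5 tested genes of gluconeogenesis and glycerol phosphate 3 fell and 1 rose.

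The 3 largest rises at 72 h were in Hk3, G6pdx and Pygl. Hk3, the hexokinase of leukocytes, went from 0.374 ± 0.115 FPKM (SD, n = 3) to 16.4 ± 0.743 FPKM (3.67 ± 0.09 on the log2 scale, adjusted p = 1.51e-08). G6pdx, the entry enzyme of the pentose phosphate pathway, went from 2.82 ± 0.151 to 20.6 ± 1.58 FPKM (2.49 ± 0.08, 4.06e-08), and Pygl, the glycogen phosphorylase of liver and leukocytes, from 3.02 ± 0.475 to 19.8 ± 1.93 FPKM (2.37 ± 0.11, 2.19e-07). The 3 largest falls were Ogdhl, a relative of Ogdh, from 48.2 ± 1.57 to 9.37 ± 3.24 FPKM (-2.29 ± 0.18, 5.25e-06), the muscle fructose bisphosphatase Fbp2 from 15.1 ± 2.41 to 3.63 ± 1.21 FPKM (-1.82 ± 0.18, 2.48e-05) and the muscle glycogen phosphorylase Pygm from 363.7 ± 20.9 to 106.1 ± 22.2 FPKM (-1.79 ± 0.13, 4e-06). Summed macrophage and monocyte markers were at 1736% to 2317% of control in the 72 h mice, and their part in these rises was not tested.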

How the data were processed

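Polyadenylated RNA of the 18 hearts was sequenced by the authors, who trimmed reads with cutadapt 1.18, mapped them to mm10 with HISAT2 2.1.0 and quantified genes with StringTie 1.3.4d. The deposited table holds the resulting FPKM per gene symbol and mouse, without counts and without averaging, and the annotation used is not given in the sources used here. All 18 sample columns were used, and groups came from the sample titles. As no counts are given, no counting error was computed, and precision comes from the spread of the 3 mice of a group, which the labels do not describe further than as replicates.

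Values were taken as log2(FPKM + 1), and limma 3.58.1 in R 4.3.3 (lmFit, eBayes with a trend) was run on the 6 mice of each of 8 comparisons, for the 13333 symbols that reached an FPKM of 1 in any mouse, less those constant over the 6 mice. P-values were two-sided and adjusted after Benjamini and Hochberg across these genes, with a threshold of 0.05. The cufflinks test of the authors needs reads and was not repeated, and their thresholds were applied to the limma p as an alternative. Isoform shares and exact permutation tests used Python 3.11.15, numpy 2.4.6, pandas 2.3.3 and scipy 1.17.1, and plots matplotlib 3.10.9. Promoters came from RefSeq on GRCm38.p6. The 48 genes, the gene lists and the markers were chosen with earlier results of these data known. Every one of the 48 genes is reported by its group, with values in each mouse for the 4 largest rises and falls at 6 h, 24 h and 72 h and for the shares of isoform pairs in control and 72 h mice, and other pathway genes are named for the 3 largest changes in each direction at 72 h. Hk2, Pgam2, Ldha, Cs, Idh1 and the early values of Slc16a1 were given in each mouse beyond that rule. The steps were tested on simulated data. Other pseudocounts, filters, scalings, fits and thresholds, and the omission of each mouse, were tried as alternatives.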

Additional observations from a re-analysis of the deposited data

Results flagged for a closer look

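For 5 genes all mice of a group lay above all control mice at 1 time and all below at another, and the difference between those times was tested here only where they are neighbours. The share of all genes with such a pattern was not computed. At a single time, FPKM without overlap with control was common, in 20.4%, 18.3%, 48.8%, 58.3% and 80.6% of all genes tested at 10 min, 1 h, 6 h, 24 h and 72 h. The pattern alone therefore does not set these 5 genes apart. Values are log2 fold changes against control with SE, and the adjusted p of limma in brackets. Pfkfb3 was at -0.33 ± 0.08 at 10 min (0.141) against 1.53 ± 0.31 at 6 h (0.0125) and 0.73 ± 0.08 at 72 h (3.43e-05). Pkm was at -0.09 ± 0.07 at 6 h (0.331) against 0.26 ± 0.15 at 24 h (0.204), and did not pass between these neighbouring times. Idh3a was at 0.16 ± 0.05 at 10 min (0.23) against -0.56 ± 0.16 at 24 h (0.032) and -1.12 ± 0.10 at 72 h (1.35e-05). Dlat was at 0.23 ± 0.05 at 10 min (0.133) and 0.17 ± 0.06 at 1 h (0.332) against -0.40 ± 0.14 at 24 h (0.0623) and -1.24 ± 0.09 at 72 h (3.73e-06). Got1 was at 0.21 ± 0.09 at 6 h (0.0997) against -1.35 ± 0.13 at 72 h (1.43e-05). None of the values at 10 min or 1 h, and neither that of Got1 nor that of Pkm at 6 h, passed the threshold, and the differences between times that are not neighbours were not tested. Single mice far from the other 2 of their group were not tested as outliers.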

How the results depend on the processing

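At 72 h the counts of 10 genes higher and 34 lower stayed within 1.5 times under all alternatives, with 9 to 10 higher and 34 lower when a mouse was left out. Under median-of-ratios scaling log2 fold changes at 72 h turned to -0.294 for Pfkl, -0.087 for Pgk1 and -0.289 for Pkm, and Pfkl and Pkm passed there as falls. Where a mean FPKM of 1 or more was required, 47 of the 48 genes were tested and Slc16a1 fell at 10 min, giving 1 fall at that time.

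The study's thresholds gave 1 fall at 6 h, 2 falls at 24 h, 1 from 1 h to 6 h, 0 from 6 h to 24 h and 10 from 24 h to 72 h, with 0 rises in the last, since the ratio over 2 removes smaller changes. Falls from 1 h to 6 h numbered 2 without the filter, 2 under median-of-ratios scaling, 3 with all 18 mice in one fit and 2 with the replicate block. Rises from 6 h to 24 h numbered 0 without the filter, 0 under median-of-ratios scaling, 0 under quantile normalization, 8 with all 18 mice and 0 with the replicate block. Falls from 6 h to 24 h numbered 2 with a pseudocount of 0.1, 0 without the filter, 2 with the mean filter, 2 with the same sum, 4 under median-of-ratios scaling, 0 under quantile normalization, 22 with all 18 mice and 0 with the replicate block. Rises from 24 h to 72 h numbered 1 without the filter, 1 under median-of-ratios scaling and 1 under quantile normalization. Apart from the thresholds, the cause of these shifts was not tested.

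With a mouse left out, 6 h had 4 to 7 rises and 2 to 13 falls, 24 h had 2 to 11 and 3 to 30, 1 h to 6 h had 3 to 6 and 1 to 11, 6 h to 24 h had 0 to 2 and 0 to 14, and 24 h to 72 h had 1 to 6 and 22 to 32. The replicate numbers were not treated as pairs, since 2 of 24 same-numbered pairs correlated above 0.1 (range -0.327 to 0.415). With the number as a block, 6 h had 4 rises and 4 falls, 24 h 10 and 20, 72 h 9 and 34, 1 h to 6 h 5 and 2, 6 h to 24 h 0 and 0, and 24 h to 72 h 2 and 30.

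Isoform shares moved by more than the spread between mice only under quantile normalization, where differences from control in percentage points became -4.34 for Pfkm beside Pfkl, -0.0394 for Aldoa, -20.4 for Ldhb, -4.47 for Got2 and -5.17 for Mdh2 at 72 h, -0.681 for Idh2 and -2.27 for Mdh2 at 24 h, and -1.83, -0.758 and 1.16 for Sucla2 at 6 h, 24 h and 72 h. The other 480 values moved less. Depth is not given, so changes of genes near an FPKM of 1, such as Aldoc, Pfkfb1 and Pfkfb4, rest on few reads and a fold change on log2(FPKM + 1) understates them.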
